A study of Saccharomyces cerevisiae with 12 samples.

Results

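The glyoxylate cycle and gluconeogenesis genes of budding yeast are described here over the 4 groups of an RNA-seq experiment on *RRD1* and rapamycin. The members were chosen by gene symbol and number 10 of the 7126 features measured: the glyoxylate cycle genes *ICL1*, *MLS1* and *MDH2*, the gluconeogenesis genes *PCK1* and *FBP1*, the acetyl-CoA genes *ACS1* and *CAT2*, and the transporter genes *JEN1*, *ADY2* and *SFC1*. No measured value enters that rule, but the list was drawn up with earlier results of the same libraries known, so counts over the members are descriptions. The wild type was strain BY4730 and the knockout was 1 strain, YSC6273-201925697, which lacks *RRD1*, an activator of PP2A-type phosphatases. Both strains were grown in flasks in YPD, a rich medium with glucose, to log phase at 30 °C. The treated cultures received 100 nM rapamycin, an inhibitor of the TORC1 kinase, for 50 min, and the controls received none. Each group holds 3 libraries, numbered 1, 3 and 5 without rapamycin and 2, 4 and 6 with rapamycin, and the repeats were made on 3 different days. No source used here says that the knockout was made in BY4730, so that the deletion and any other difference between the strains cannot be told apart.

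Levels are in FPKM, the fragments of a gene divided by its transcript length and scaled to the mapped fragments of the library. Differences are log2 fold changes on the log2(FPKM + 1) scale from 1 limma fit over 6497 features, which understates the changes of genes with low FPKM, with calls made at 0.01 on *p*-values adjusted after Benjamini and Hochberg. *RRD1* was at 47.5 to 85.3 FPKM in the 6 wild-type libraries and at 0 to 0.203 FPKM in the 6 knockout libraries. The a-cell gene *STE2*, a pheromone receptor, was at 530.5 to 1836 FPKM in the 12 libraries, and the alpha-cell gene *STE3* at 2.71 to 11.2 FPKM. The other alpha-cell genes listed were not all as low. *MF(ALPHA)1* was at 0 to 1.87, *MF(ALPHA)2* at 28.9 to 59.8 and *SAG1* at 13.5 to 80.3 FPKM. *LEU2*, *MET17* and *URA3* were listed at 0 in all libraries of both strains. Of the 12 mating type and strain marker genes that could be tested, 0 were called between the untreated strains and 2 between the treated strains, *ASG7* and *HIS3*, both lower in the knockout, against 5.79% of all features. With rapamycin 8 of the 12 rose in the wild type and 4 in the knockout, where 35.9% and 36.4% of all features rose. Steps of 1 read in low FPKM values imply between 8440000 and 11760000 mapped reads per library. At that depth the members had between 7 reads, for *SFC1*, and 1845 reads, for *MDH2*, in a library. Knockout library 1 stood apart from knockout libraries 3 and 5 in glucose transport and phosphorylation genes, with *HXT2* at 1540 against 462.6 and 318.3 FPKM and *HXK1* at 106.3 against 25.5 and 16.9 FPKM. *ICL1*, *MDH2* and *ADY2* were also highest there among the untreated knockout libraries. Their responses in the knockout and their differences between untreated strains are given with and without library 1. *MLS1*, *ACS1*, *JEN1* and *CAT2* were highest there too, with *JEN1* at 7.79 against 5.31 and 6.07 FPKM. Their knockout responses are given only with library 1. Among the treated knockout libraries, library 2 had the highest *HXK1*, at 253.0 against 45.6 and 80.1 FPKM, and the highest *ICL1* and *MDH2*.

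Yeast that grows on acetate, ethanol or fatty acids makes its sugars from units of acetyl-CoA. The glyoxylate cycle bypasses the steps of the citric acid cycle that release carbon dioxide, so that acetyl-CoA yields a net gain of malate and oxaloacetate, and phosphoenolpyruvate carboxykinase and fructose bisphosphatase then carry this carbon back toward glucose. In cells with ample glucose these genes are known for strong repression, and their enzymes are destroyed once glucose returns. Without glucose the kinase Snf1 and the zinc cluster factors Cat8 and Sip4 activate them through the carbon source-responsive element in their promoters.

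The core of that element was searched in the 600 bases before each start codon of the R64 reference, as CC and CCG with any 6 bases between them, on both strands. The letters were found before 9 of the 10 members, all except *JEN1*, and before 1482 of 5999 protein-coding genes (24.7%). *MLS1* had 6 matches, *MDH2* and *ADY2* 4 each, *PCK1*, *FBP1* and *ACS1* 3 each, *SFC1* 2, and *ICL1* and *CAT2* 1 each. A longer form, CCATT and CCG with any 3 bases between them, was noticed in these sequences after the values were seen. It was found before 6 members and before 62 of the 5999 genes (1.03%), and 1 such site of each of the 6 genes is shown here because the members differ in response while they share these letters. Capitals mark the match, the lower case is 10 bases of flank on each side, each sequence reads 5′ to 3′ along the gene's own strand, and a match on the opposite strand begins with CGG.
*ICL1*: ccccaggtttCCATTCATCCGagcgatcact
*MLS1*: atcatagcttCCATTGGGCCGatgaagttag
*MDH2*: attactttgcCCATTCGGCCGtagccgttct
*ACS1*: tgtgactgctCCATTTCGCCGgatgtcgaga
*PCK1*: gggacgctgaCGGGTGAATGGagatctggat
*SFC1*: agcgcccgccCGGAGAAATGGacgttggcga
In R64 coordinates the 6 stretches are chrV:287292-287322 (minus strand), chrXIV:405848-405878 (plus), chrXV:83277-83307 (minus), chrI:45373-45403 (minus), chrXI:630580-630610 (plus) and chrX:609183-609213 (plus). Their first capitals lie at -398, -500, -377, -371, -562 and -580 from the start codon. The 2 other motifs searched were found before fewer members than the core. GATAAG, the letters bound by the GATA factors of nitrogen regulation, was found before *ICL1* and *CAT2* (26.8% of all promoters), and CCCCT, the stress response element, before 6 members (39.7% of all promoters). Both motifs can overlap the core, and in *MLS1* and in *MDH2* a CCCCT match did. A match is a run of letters and was not tested as a binding site.

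**Figure D1:**
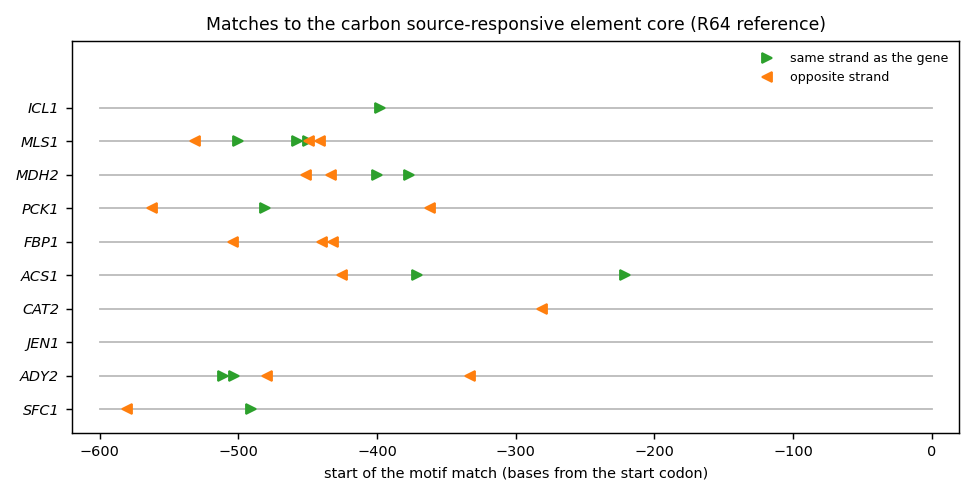
Position of each match to the carbon source-responsive element core in the 600 bases before the start codon of the 10 genes, with the distance from the start codon in bases on the x axis and the strand given by the direction of the triangle. *MLS1* carries 6 matches, *ICL1* and *CAT2* 1 each and *JEN1* none in this window.

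In the wild type, rapamycin raised 7 of the 10 members, with the largest rise in *MLS1*, and lowered 1, *MDH2*. Over all features 35.9% were called higher and 16.3% lower in this comparison, and the median log2 fold change was 1.11 over the members against 0.29 over all features. In the knockout 5 members were called higher and 0 lower, against 36.4% and 10.3% of all features, with medians of 0.86 and 0.34. Since the median feature itself lies above 0 in both responses, each member's response below is also given after median-ratio scaling of the libraries. That scaling moved the 2 medians of all features to 0.01 and 0.00. Responses of other genes are given without it unless stated. With that scaling 6 members were called higher and 1 lower in the wild type, and 4 higher and 1 lower in the knockout. Over all features the share of higher genes among those called went from 68.8% to 49.1% in the wild type and from 77.9% to 49.3% in the knockout.

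**Figure D2:**
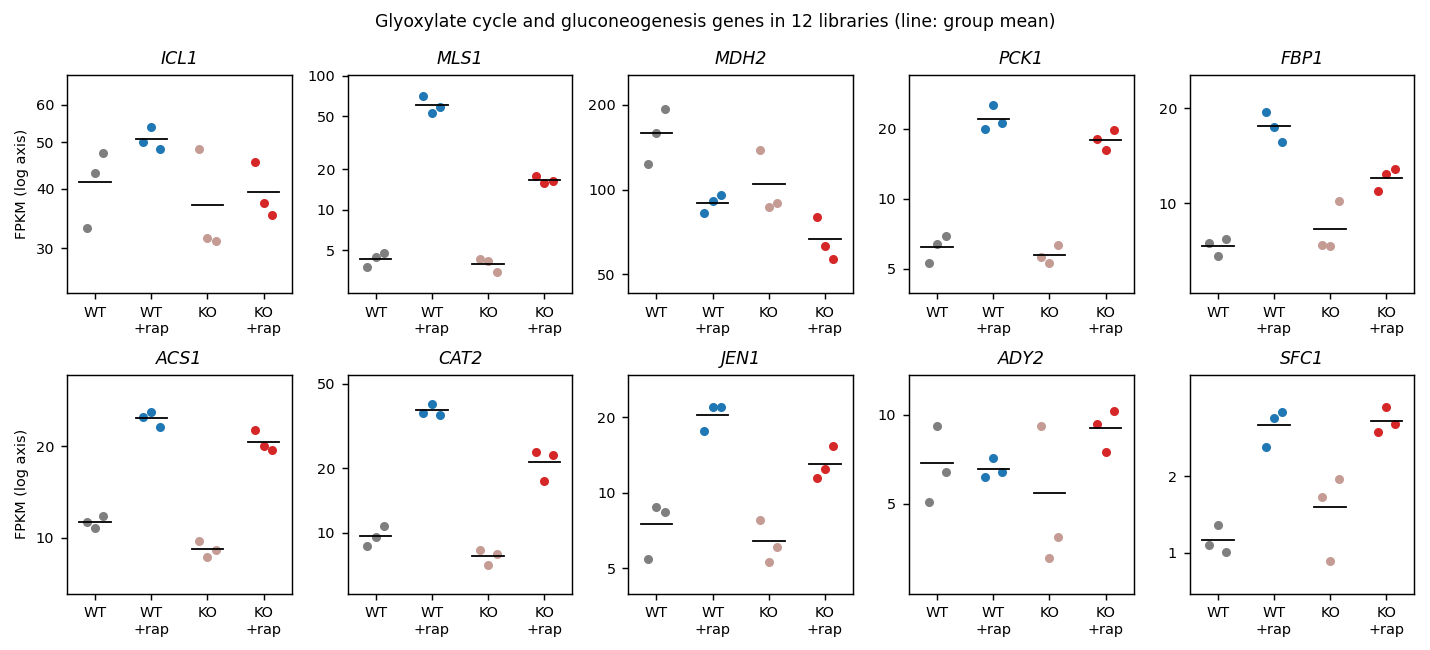
FPKM on a log axis of each of the 10 genes, 1 point per library and a line at the mean of the 3 libraries of a group (WT wild type, KO *RRD1* knockout, +rap with rapamycin). *MLS1* stands at 52.8 to 70.3 FPKM in the treated wild type and at 15.8 to 18.0 FPKM in the treated knockout, while *ICL1* stays between 31.0 and 53.9 FPKM throughout.

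*MLS1* encodes malate synthase, which joins glyoxylate and acetyl-CoA to malate. The gene lies on chromosome XIV from 406358 to 408022 on the plus strand, and its single exon of 1665 nt is coding sequence, like that of every member in R64. Its level was 3.74, 4.46 and 4.73 FPKM in the untreated wild type and 70.3, 52.8 and 58.5 FPKM in the treated wild type. In the knockout it was 4.29, 4.13 and 3.46 FPKM without and 18.0, 15.8 and 16.3 FPKM with rapamycin. The 4 groups therefore form 3 levels: the untreated groups overlap, the treated knockout lies above both, and the treated wild type lies above the treated knockout with no overlap. The response was 3.53 in the wild type (95% interval 3.22 to 3.84, adjusted *p* = 8.0e-09 from limma), a 14.0-fold rise in mean FPKM. It was 1.84 in the knockout (1.53 to 2.14, adjusted *p* = 1.4e-06), a 4.22-fold rise. After median-ratio scaling the responses were 3.26 and 1.53.

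The response of *MLS1* in the knockout was smaller than in the wild type by 1.69 on the log2 scale (interval of the difference -2.12 to -1.26, adjusted *p* = 0.0043 from the interaction term of the limma fit). Over all features, 0.077% were called at this threshold with a difference above 0 and 0.185% with one below 0, and *MLS1* was the 1 member called. Leaving out 1 library kept the difference between -1.78 and -1.58, and the adjusted *p* reached 0.025. In 8 of 18 alternative analyses it stayed past the threshold. It did not without wild-type library 1, 2, 3 or 6, without knockout library 1, 3, 4 or 5, with no filter on low values or with the library number as a block. With rapamycin the knockout was below the wild type by 1.79 (interval -2.09 to -1.48, adjusted *p* = 3.0e-05), and this call was kept in all 19 alternative analyses. Without rapamycin the difference was -0.10 (interval -0.40 to 0.21, adjusted *p* = 0.75).

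*ICL1* encodes isocitrate lyase, the enzyme that splits isocitrate into succinate and glyoxylate and so opens the bypass. It lies on chromosome V from 285241 to 286914 on the minus strand. Its level was 33.1, 43.1 and 47.5 FPKM in the untreated and 50.1, 53.9 and 48.4 FPKM in the treated wild type, and 48.5, 31.5 and 31.0 FPKM in the untreated and 45.6, 37.4 and 35.2 FPKM in the treated knockout. In contrast to *MLS1*, whose product works on the product of *ICL1*, the groups of *ICL1* lie close together. The response was 0.31 in the wild type (interval -0.09 to 0.71, adjusted *p* = 0.16 from limma) and 0.11 in the knockout (-0.29 to 0.51, adjusted *p* = 0.62). After median-ratio scaling the responses were 0.02 and -0.24, the latter with its sign changed. Without knockout library 1 the response in the knockout was 0.32 (adjusted *p* = 0.11), and the difference between the responses went from -0.20 to 0.0069. The treated knockout libraries lay below the treated wild-type libraries without overlap, but the difference of -0.37 was not past the threshold (interval -0.77 to 0.04, adjusted *p* = 0.17).

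*MDH2* encodes the cytosolic malate dehydrogenase, which turns malate into oxaloacetate for gluconeogenesis. It is on chromosome XV from 81787 to 82920 on the minus strand. Among the members it had the highest FPKM in every library, with 123.4, 158.8 and 192.6 in the untreated and 82.5, 91.3 and 95.7 in the treated wild type. In the knockout it was at 137.7, 86.7 and 89.6 FPKM without and 79.8, 63.1 and 56.9 FPKM with rapamycin. Both strains were thus lower with rapamycin, with no overlap between the groups. The fall of 0.79 in the wild type was called (interval -1.24 to -0.34, adjusted *p* = 0.0057 from limma) and stood in 12 of 18 alternative analyses. It was lost with no filter on low values (adjusted *p* = 0.011) and without wild-type library 3 or 5, or without wild-type library 2, 4 or 6, where adjusted *p*-values were 0.012 to 0.026. The change of -0.63 in the knockout was not called (interval -1.08 to -0.17, adjusted *p* = 0.021) and was -0.41 without knockout library 1 (adjusted *p* = 0.085). With median-ratio scaling the changes were -1.08 and -0.98 and both were called (adjusted *p* = 0.00040 and 0.0010).

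*PCK1*, for phosphoenolpyruvate carboxykinase, turns oxaloacetate into phosphoenolpyruvate, the first committed step toward glucose. It is on chromosome XI from 631152 to 632801 on the plus strand. Its level was 5.30, 6.36 and 6.91 FPKM in the untreated and 19.9, 25.4 and 21.1 FPKM in the treated wild type, and 5.61, 5.29 and 6.30 FPKM in the untreated and 18.1, 16.2 and 19.7 FPKM in the treated knockout. Rapamycin separated the groups in both strains, and the treated knockout ended just under the treated wild type. The rise was 1.69 in the wild type (interval 1.38 to 1.996, adjusted *p* = 1.3e-06 from limma) and 1.5 in the knockout (1.19 to 1.81, adjusted *p* = 5.9e-06), or 1.42 and 1.17 after median-ratio scaling. The responses differed by -0.19 (interval -0.63 to 0.25, adjusted *p* = 0.71), an interval that still allows a difference of 0.63.

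*FBP1* encodes the fructose bisphosphatase that reverses the phosphofructokinase step of glycolysis. It lies on chromosome XII from 873746 to 874792 on the minus strand. Its level was 7.48, 6.81 and 7.67 FPKM in the untreated and 19.4, 17.5 and 15.6 FPKM in the treated wild type. In the knockout it was 7.37, 7.32 and 10.2 FPKM without and 10.9, 12.4 and 12.8 FPKM with rapamycin, so that the treated knockout lay between the untreated groups and the treated wild type. It rose by 1.15 in the wild type (interval 0.83 to 1.47, adjusted *p* = 3.7e-05 from limma), or by 0.88 after median-ratio scaling. The change of 0.50 in the knockout missed the threshold (0.18 to 0.82, adjusted *p* = 0.012). It was called in 3 of 18 alternative analyses, among them without knockout library 5 (0.64, adjusted *p* = 0.0035). After median-ratio scaling it was 0.18, and with quantile normalization -0.0236 (adjusted *p* = 0.92). The responses differed by -0.65 (interval -1.11 to -0.19), which was not called over all features (unadjusted *p* = 0.0095, adjusted *p* = 0.12).

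*ACS1* encodes the acetyl-CoA synthetase of cells that use acetate, a glucose-repressed enzyme. It is on chromosome I from 42881 to 45022 on the minus strand. Its level was 11.2, 10.7 and 11.8 FPKM in the untreated and 25.0, 26.0 and 23.1 FPKM in the treated wild type, and 9.80, 8.66 and 9.13 FPKM in the untreated and 22.5, 20.04 and 19.4 FPKM in the treated knockout. The replicates lay close together, and the knockout was lower than the wild type without overlap under both conditions. The differences between the strains were small, -0.27 without rapamycin (interval -0.50 to -0.04, adjusted *p* = 0.18 from limma) and -0.25 with it (-0.48 to -0.02, adjusted *p* = 0.10), and neither was called. The rises with rapamycin were 1.06 (0.84 to 1.29, adjusted *p* = 4.4e-06) in the wild type and 1.09 (0.86 to 1.31, adjusted *p* = 6.5e-06) in the knockout. After median-ratio scaling the rises were 0.79 and 0.75. They differed by 0.02, with an interval of -0.30 to 0.34, and this sign changed with the scaling.

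*CAT2* encodes the carnitine acetyltransferase of peroxisomes and mitochondria, which loads acetyl groups on carnitine so that they can cross membranes. It lies on chromosome XIII from 192788 to 194800 on the plus strand. Its level was 8.66, 9.51 and 10.7 FPKM in the untreated and 36.6, 40.3 and 35.5 FPKM in the treated wild type, and 8.31, 7.05 and 7.98 FPKM in the untreated and 23.9, 17.5 and 23.1 FPKM in the treated knockout. As for *MLS1*, the treated knockout lay between the untreated groups and the treated wild type. It rose by 1.86 in the wild type (interval 1.56 to 2.16, adjusted *p* = 4.9e-07 from limma) and by 1.35 in the knockout (1.05 to 1.65, adjusted *p* = 9.5e-06), or by 1.58 and 1.02 after median-ratio scaling. With rapamycin the knockout was lower by 0.78 (interval -1.08 to -0.49, adjusted *p* = 0.0019), and the call was lost with only the 6 treated libraries in the fit (adjusted *p* = 0.016) and with the library number as a block (adjusted *p* = 0.014). The difference between the responses, -0.51, was not called (interval -0.93 to -0.09, adjusted *p* = 0.19).

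*JEN1* encodes the plasma membrane carrier of lactate and pyruvate. It is on chromosome XI from 22234 to 24084 on the plus strand. Its level was 5.43, 8.77 and 8.39 FPKM in the untreated and 17.6, 21.9 and 21.8 FPKM in the treated wild type. In the knockout it was 7.79, 5.31 and 6.07 FPKM without and 11.4, 12.4 and 15.3 FPKM with rapamycin, again with the treated knockout in the middle. It rose by 1.35 in the wild type (interval 0.91 to 1.78, adjusted *p* = 0.00010 from limma) and by 0.93 in the knockout (0.50 to 1.36, adjusted *p* = 0.0018), and after median-ratio scaling the changes were 1.08 and 0.61, of which the second was not called (adjusted *p* = 0.016). With rapamycin the strains differed by -0.61 (interval -1.04 to -0.18, unadjusted *p* = 0.0098), short of the threshold at an adjusted *p* of 0.041.

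*ADY2*, for an acetate transporter of the plasma membrane, lies on chromosome III from 132273 to 133124 on the minus strand. Its level was 5.07, 9.17 and 6.43 FPKM in the untreated and 6.18, 7.17 and 6.41 FPKM in the treated wild type, and 9.17, 3.29 and 3.85 FPKM in the untreated and 9.31, 7.497 and 10.3 FPKM in the treated knockout. The untreated libraries spread widely, from 3.29 to 9.17 FPKM, and the treated knockout was above the treated wild type, the reverse of most other members. No comparison was called. The change with rapamycin was -0.03 in the wild type (interval -0.70 to 0.65, adjusted *p* = 0.95 from limma) and 0.74 in the knockout (0.07 to 1.41, adjusted *p* = 0.054). Without knockout library 1, the high one of the 3 untreated, the change in the knockout was 1.13 and was called (adjusted *p* = 0.0022). That was the 1 call in 18 alternative analyses, and leaving out 1 library gave 0.51 to 1.13. After median-ratio scaling of all libraries the changes were -0.28 and 0.44.

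*SFC1* encodes the mitochondrial carrier that exchanges succinate from the glyoxylate cycle for fumarate. It is on chromosome X from 609773 to 610741 on the plus strand. It had the lowest level of the members in every library, 1.07, 1.29 and 1.01 FPKM in the untreated and 2.61, 3.37 and 3.57 FPKM in the treated wild type, and 1.65, 0.927 and 1.95 FPKM in the untreated and 2.97, 3.73 and 3.20 FPKM in the treated knockout. These levels rest on 7 to 30 implied reads per library. The treated groups overlap, with a difference between the strains of 0.04 (interval -0.51 to 0.60, adjusted *p* = 0.93 from limma), while both lie above the untreated groups. The rise of 0.97 in the wild type (interval 0.42 to 1.53, adjusted *p* = 0.0055 from limma) stood in 10 of 18 alternative analyses. It was lost with quantile normalization (0.54, adjusted *p* = 0.10), after median-ratio scaling (0.78, adjusted *p* = 0.021) and without wild-type library 1, 3, 4, 5 or 6 (adjusted *p* = 0.011 to 0.025). A fit of only the wild-type libraries lost it too. The change in the knockout was 0.80 (interval 0.24 to 1.35, adjusted *p* = 0.018), or 0.56 after median-ratio scaling.

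**Figure D3:**
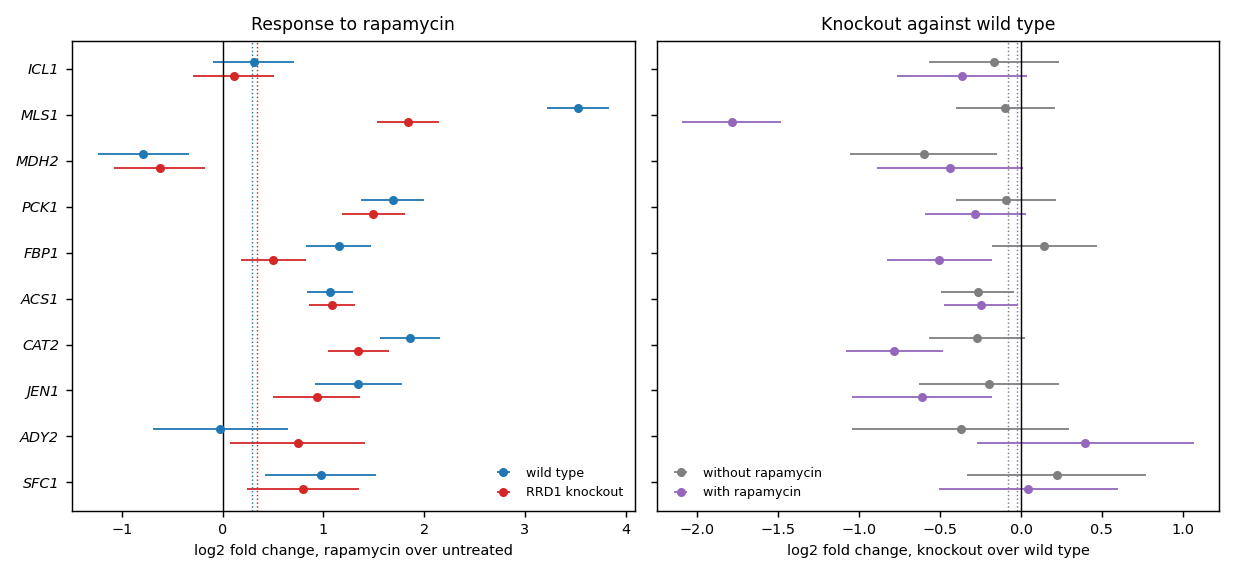
Log2 fold changes of the 10 genes with 95% intervals from limma (x axis), for rapamycin against no treatment in each strain on the left and for the knockout against the wild type under each condition on the right. Dotted lines mark the median of all features in the same comparison. The intervals of *MLS1* in the 2 strains do not overlap on the left, and on the right *MLS1* lies at -1.79 and *CAT2* at -0.78 with rapamycin.

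Between the strains, 0 of the 10 members were called without rapamycin, where 0.0308% of all features were higher and 0.554% lower in the knockout. Before adjustment 2 members, *MDH2* and *ACS1*, and 1303 of all features were under 0.05. *MDH2* differed by -0.60 (interval -1.05 to -0.15, adjusted *p* = 0.13 from limma). Without knockout library 1, *MDH2* was at -0.81 (adjusted *p* = 0.051), *ADY2* at -0.76 (adjusted *p* = 0.13) and *ICL1* at -0.37 (adjusted *p* = 0.26). With rapamycin 2 members, *MLS1* and *CAT2*, were called lower in the knockout and 0 higher, against 5.79% and 8.28% of all features. Their median difference was -0.40 over the 10 members and -0.02 over all features. The libraries of the strains did not overlap for 9 members with rapamycin, of which *ADY2* lay above and the others below the wild type, where this held for 41.0% of all features, and for 2 members without rapamycin, where it held for 25.4%. Between treated and untreated libraries the groups did not overlap for 9 members in the wild type and 8 in the knockout, against 68.2% and 67.3% of all features.

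Per length, the order of the group means in the untreated wild type was *MDH2* at 158.3 ± 34.6 FPKM (SD, n = 3), *ICL1* at 41.3 ± 7.38, *ACS1* at 11.3 ± 0.536, *CAT2* at 9.63 ± 1.03, *JEN1* at 7.53 ± 1.83, *FBP1* at 7.32 ± 0.454, *ADY2* at 6.89 ± 2.09, *PCK1* at 6.19 ± 0.815, *MLS1* at 4.31 ± 0.514 and *SFC1* at 1.12 ± 0.148 FPKM. From *CAT2* to *PCK1* the neighbors overlapped in their libraries, *ACS1* lay just above *CAT2*, and *MDH2*, *ICL1*, *MLS1* and *SFC1* stood clear of the rest. In the treated wild type *MLS1*, at 60.5 ± 8.97 FPKM (SD, n = 3), had moved to the place after *MDH2* at 89.9 ± 6.72 FPKM, with *ICL1* at 50.8 ± 2.82 and *CAT2* at 37.5 ± 2.50 FPKM behind it. *MLS1* and *ICL1* overlapped there in their libraries. In the treated knockout *MLS1* at 16.7 ± 1.13 FPKM (SD, n = 3) stayed below *ICL1* at 39.4 ± 5.48 FPKM. The mean of *MLS1* was also below those of *CAT2* at 21.5 ± 3.47, *ACS1* at 20.7 ± 1.67 and *PCK1* at 18.0 ± 1.75 FPKM. *MLS1* overlapped *CAT2* and *PCK1* there in their libraries.

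The members did not vary as 1 group. Over the 12 libraries, which mostly reflects the group means, Pearson's *r* on the log2(FPKM + 1) scale was 0.98 between *MLS1* and *CAT2*, 0.98 between *PCK1* and *ACS1* and 0.94 between *MLS1* and *JEN1*. It was 0.60 between *MLS1* and *ICL1* and -0.48 between *MLS1* and *MDH2*. Once the group means were taken out, *ICL1* and *MDH2* deviated together (*r* = 0.95), as did *ICL1* and *ADY2* (*r* = 0.77). Knockout library 1 was the highest untreated knockout library for each of these 3 genes, and wild-type library 1 the lowest untreated wild-type library. The same held for *MLS1*, *JEN1* and *CAT2*. These correlations describe 12 libraries that share strain, treatment and scaling, and they carry no test. The features with the pattern most like *MLS1* were YIL165C, *DAL5* and *DAL2* (*r* = 0.99 each over 12 libraries), the last pair being genes of allantoate uptake and allantoin breakdown. *DAL5* was at 748.5 to 861.7 FPKM in the treated wild type and at 81.6 to 153.4 FPKM in the treated knockout. The features most like *PCK1* were *MET22*, *ARO1* and *AVT4*, those most like *JEN1* were *UBP7*, *HPF1* and *PDR18* (all *r* = 0.99), and those most like *FBP1* were *TPP1*, *OSW2* and YOR365C (*r* = 0.97). For *ICL1* the closest were YDL218W, *TAX4* and *TKL2* (*r* = 0.91), and for *ADY2* they were *NAM8*, *MIH1* and *SEC7* (*r* = 0.85 to 0.90).

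Several members have a paralog or isozyme that is used in another compartment or under another nutrient. No stretch of 100 nt of a member or of the 9 paralogs listed had a second place in the R64 genome within 2 mismatches, so that reads of this length could be told apart at that tolerance. *DAL7*, the malate synthase made when allantoin is used, shares 74.1% of aligned coding bases with *MLS1*. It was at 29.4, 26.9 and 26.4 FPKM in the untreated and 552.0, 423.5 and 541.0 FPKM in the treated wild type, and at 23.7, 17.0 and 21.8 FPKM in the untreated and 99.3, 106.7 and 177.5 FPKM in the treated knockout. Like *MLS1* it was far lower in the treated knockout than in the treated wild type, by 2.01 (interval -2.47 to -1.56, adjusted *p* = 0.00013 from limma). *MLS1* made up 13.6 ± 2.03% (SD, n = 3) of the summed FPKM of both genes in the untreated and 10.7 ± 0.838% in the treated wild type, and 16.2 ± 3.03% and 12.2 ± 3.51% in the knockout, while the levels of both genes rose in both strains.

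The carnitine genes moved with *CAT2*. *YAT2*, a cytosolic carnitine acetyltransferase, was at 12.3, 16.0 and 13.9 FPKM in the untreated and 201.0, 248.4 and 242.4 FPKM in the treated wild type, and at 14.9, 11.5 and 13.9 FPKM in the untreated and 88.3, 62.4 and 82.0 FPKM in the treated knockout. It was lower in the treated knockout by 1.57 (adjusted *p* = 0.00011 from limma), and its response was smaller by 1.51 (adjusted *p* = 0.0098), a call kept in 2 of 18 alternative analyses. *YAT1*, the mitochondrial enzyme, was lower by 1.13 (adjusted *p* = 0.0013), and *CRC1*, the mitochondrial carnitine carrier, by 1.62 (adjusted *p* = 0.00051), from 49.1 to 58.5 FPKM in the treated wild type to 13.0 to 23.7 FPKM in the treated knockout. All 4 carnitine genes rose with rapamycin in both strains, *CRC1* by 4.05 in the wild type (adjusted *p* = 7.1e-08) and by 2.65 in the knockout (adjusted *p* = 2.7e-06).

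*ATO2*, a relative of *ADY2* linked to ammonium export, had 12.5, 13.4 and 14.0 FPKM in the untreated and 64.1, 55.0 and 57.0 FPKM in the treated wild type, where *ADY2* was not called. In the treated knockout it was at 34.4, 27.6 and 32.1 FPKM, lower than in the treated wild type by 0.88 (adjusted *p* = 0.00089 from limma). *ATO3*, the other relative, fell by 1.5 in the wild type and by 1.21 in the knockout and was 0.75 higher in the treated knockout than in the treated wild type (adjusted *p* = 0.00036). *ACS2*, the acetyl-CoA synthetase of growth on glucose, was at 193.8 to 272.1 FPKM in all 12 libraries with no call. *ACS1* therefore made up 4.68 ± 0.710% (SD, n = 3) of the summed FPKM of the 2 synthetases in the untreated and 9.5 ± 0.900% in the treated wild type, and 3.89 ± 0.0810% and 7.59 ± 0.441% in the knockout. *ICL2*, a mitochondrial enzyme of the 2-methylcitrate pathway, rose by 0.94 in the wild type and 1.11 in the knockout (adjusted *p* = 0.00016 and 5.8e-05), unlike *ICL1*. *MDH1*, the mitochondrial malate dehydrogenase, had no call. *MDH3*, the peroxisomal one, rose by 0.65 in the knockout (adjusted *p* = 0.0036), and its 0.23 in the wild type was not called (adjusted *p* = 0.21). Before median-ratio scaling the median of all features was itself 0.34 in the knockout and 0.29 in the wild type. After that scaling the wild-type change of *MDH3* was -0.06, and its knockout rise is given only before it.

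**Figure D4:**
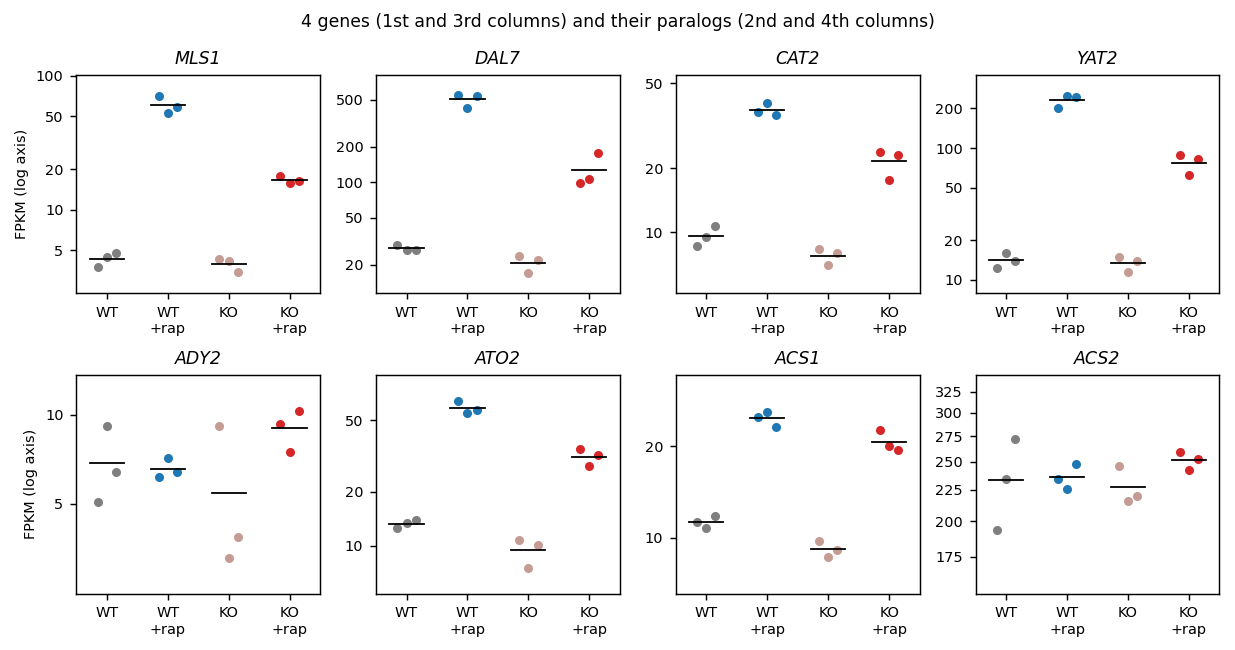
FPKM on a log axis of *MLS1*, *CAT2*, *ADY2* and *ACS1* beside their paralogs *DAL7*, *YAT2*, *ATO2* and *ACS2*, 1 point per library and a line at the group mean. *DAL7*, *YAT2* and *ATO2* are lower in the treated knockout than in the treated wild type, and *ACS2* stays between 193.8 and 272.1 FPKM.

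Among 30 other genes of non-fermentable carbon use, rapamycin raised 20 and lowered 3 in the wild type and raised 21 and lowered 2 in the knockout, with medians of 1.18 and 0.95. Over all features 35.9% rose and 16.3% fell in the wild type and 36.4% rose and 10.3% fell in the knockout, with medians of 0.29 and 0.34. In the treated knockout 8 of the 30 were called lower than in the treated wild type and 0 higher, where 5.79% of all features were lower, with a median of -0.46 against -0.02 over all features. The largest of these differences, after *CRC1*, was in *PYC1*, one of the pyruvate carboxylases that make oxaloacetate for *PCK1*, with means of 782.4 FPKM in the treated wild type and 320.5 FPKM in the treated knockout (-1.28, adjusted *p* = 0.00043 from limma). *DLD1*, a lactate dehydrogenase of the inner mitochondrial membrane, was lower by 0.88, and *ALD2* and *ALD3*, cytosolic aldehyde dehydrogenases, by 0.82 and 0.69 (adjusted *p* = 0.00068, 0.00084 and 0.0018). *CIT2*, the peroxisomal citrate synthase that feeds the glyoxylate cycle, rose by 3.81 in the wild type and by 3.86 in the knockout, and the strains did not differ past the threshold with rapamycin (-0.67).

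Of 32 regulators of these genes, 7 were called higher and 3 lower with rapamycin in the wild type, and 7 higher and 2 lower in the knockout. Their medians were 0.02 and 0.09, under those of all features (0.29 and 0.34), of which 35.9% and 36.4% were higher and 16.3% and 10.3% lower. *SIP4*, a factor that binds the carbon source-responsive element, was at 0.507, 1.05 and 0.964 FPKM in the untreated and 17.2, 19.8 and 14.8 FPKM in the treated wild type, and at 0.548, 0.703 and 0.518 FPKM in the untreated and 7.04, 6.39 and 6.85 FPKM in the treated knockout. The treated knockout was below the treated wild type by 1.23 (adjusted *p* = 0.0014 from limma), with a difference between the responses of -1.03 that was not called (adjusted *p* = 0.081). *CAT8*, the other activator, had means of 5.33 and 8.62 FPKM in the untreated and treated wild type and 3.89 and 6.26 FPKM in the knockout, with no call. The repressor genes *NRG1* and *NRG2* were also lower in the treated knockout, by 0.92 and 0.81 (adjusted *p* = 0.0097 and 0.0074), and *HXK2*, for the hexokinase of glucose repression, was 0.97 higher (adjusted *p* = 0.0025). Of 19 alternative analyses, *NRG1* stayed past the threshold in 5, *NRG2* in 7 and *HXK2* in 16. These 4 of the 32, 1 higher and 3 lower, are the regulators called between the strains with rapamycin. Of all features 8.28% were higher and 5.79% lower in that comparison. Without rapamycin 0 of the 32 were called, against 0.0308% of all features higher and 0.554% lower.

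Of 13 genes listed for the GID ubiquitin ligase, which destroys gluconeogenic enzymes when glucose returns, and for related functions, 10 rose with rapamycin in each strain and 0 fell, with medians of 1.23 and 1.17. Of all features 35.9% and 36.4% rose, with medians of 0.29 and 0.34. *GID8*, a core subunit, and YGR066C, also known as *GID10*, a substrate receptor, were lower in the treated knockout by 0.83 and 0.97 (adjusted *p* = 0.0045 and 0.0047 from limma), in 14 and 12 of 19 alternative analyses. They were the 2 of the 13 called there, where 5.79% of all features were lower. Of 12 markers of the glucose state of the culture, 0 rose and 5 fell with rapamycin in the wild type. In the knockout 2 rose and 3 fell. Their medians were -0.83 and -0.69, against 0.29 and 0.34 over all features, of which 35.9% and 36.4% rose and 16.3% and 10.3% fell. The 12 were not split by how glucose regulates them, so these counts give no direction of the glucose state. The 2 that rose in the knockout were *GLK1*, by 2.14, and *CYC1*, a cytochrome c gene, by 0.80. Among those that fell in both strains was *ADH2*, a glucose-repressed alcohol dehydrogenase that Cat8 and Adr1 activate, by 1.14 and 0.83. The high-affinity glucose transporter gene *HXT7* was at 108.4 to 148.8 FPKM in the untreated wild type and at 15.2 to 73.2 FPKM in the untreated knockout, with its highest knockout value in library 1. The hexokinase gene *HXK1* and the glucokinase gene *GLK1* were likewise below the wild type in all 3 untreated knockout libraries, by differences that were not called (-2.93 and -1.78). The difference of -1.95 for *HXT7* was not called either. Without knockout library 1 the differences were -3.69 for *HXK1*, which was not called, and -2.06 for *GLK1* and -2.54 for *HXT7*. The last 2 were called (adjusted *p* = 0.0095 and 0.0012 from limma), each in this 1 of 19 alternative analyses only. Library 1 was set apart by its high values of such genes, so larger differences without it follow from that choice. The part of the glucose state in the levels of *ICL1*, *MDH2* and *ADY2* was not tested.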

How the data were processed

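RNA from 12 yeast cultures was sequenced as 100 nt single reads. The authors aligned the reads with TopHat, quantified genes with Cufflinks and deposited 1 column of FPKM per library, with no scaling between libraries stated. Versions, genome build and annotation are not given in the sources used here. Groups were taken from the source labels and library numbers from the titles, and 0 columns were unmapped. A mean of at least 1 FPKM was required (6497 of 7126 features, all 10 members among them), and log2(FPKM + 1) was fitted with limma 3.58.1 in R 4.3.3, with a mean for each of the 4 groups, a trended empirical Bayes variance (8 residual degrees of freedom), in place of CuffDiff, which needs aligned reads. Calls were made at 0.01 after Benjamini-Hochberg adjustment over all features. Tests of single genes by permutation of 3 against 3 libraries cannot go below *p* = 0.1 and were not run. Nothing says more of the replicates than their 3 days. The limma code was tested on simulated data. The depth was searched from steps of 1 read in FPKM values, with an assumed fragment length, so it and the implied reads are estimates. The step fits 63.9% to 77.8% of 19 to 36 low values per library within 0.05 of a whole read. Coordinates and promoters are from R64 and were joined by ORF name (6048 features matched). The motifs were chosen after the values were seen. Members and lists were chosen with earlier results of these data known. Named were all members and paralogs, up to 5 called genes per list by size of change in a contrast between strains, and the 3 features most correlated with each of 6 members. *CIT2*, *CAT8*, *ADH2*, *HXT2*, *HXT7*, *HXK1*, *GLK1* and *CYC1* were named after their values were seen. Alternatives were another pseudocount (0.1), no filter, median-ratio scaling, quantile normalization, no variance trend, only the libraries of a contrast, the library number as a block, a threshold of 0.05 and leaving out each library.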

Additional observations from a re-analysis of the deposited data

Results flagged for a closer look

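The rapamycin response of *MLS1* differed between the strains by the interaction term of the limma fit, with the response of the knockout minus that of the wild type at -1.69 on the log2 scale (adjusted *p* = 0.0043 over all features). *MLS1* rose in 3 of 3 treated libraries of each strain, and the values are given above. The adjusted *p*-value ranged from 0.00064 to 0.025 over 18 alternative analyses.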

How the results depend on the processing

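Of the 50 changes of single members (10 genes in 5 comparisons), 35 kept direction and side of the threshold in all alternatives and 7 changed sign in at least 1. The sign changes were in *PCK1* between untreated strains (0.0194 with quantile normalization, 0.0024 with median-ratio scaling), in the knockout response of *ICL1* (-0.30 and -0.24) and of *FBP1* (-0.0236 with quantile normalization), and in the difference of responses of *ACS1* (-0.16 and -0.0351, and -0.0408 to 0.0635 on leaving out 1 library). On leaving out 1 library they were also in *SFC1* between treated strains (-0.058 to 0.11), in *ADY2* in the wild-type response (-0.20 to 0.17) and in *ICL1* in the difference of responses (-0.31 to 0.0069). The cause was not tested.

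Leaving out 1 library gave 0 members called between untreated strains, 2 between treated strains, 6 to 8 in the wild-type response, 5 to 6 in the knockout response and 0 to 1 in the difference. Over all features it gave 1 to 46, 423 to 908, 2974 to 3404, 2439 to 3114 and 1 to 19 calls, against 38, 914, 3390, 3032 and 17. The count between treated strains was 423 without knockout library 4 and 509 without wild-type library 6. Between untreated strains it was 1, 11 and 20 without knockout library 3, 5 and 4, and 17, 18, 23, 5 and 18 without wild-type library 1, 3, 4, 5 and 6. In the difference it was 1 or 2 without the libraries that end the call of *MLS1*, 6 without wild-type library 5 and 9 without knockout library 2. When a fit held no libraries beyond its contrast, 1 feature was called between untreated strains, and 212 features with 1 member between treated strains. With no filter on low values, 23 features were called between untreated strains and 1 in the difference, where 0 members were left. Quantile normalization gave 15 and 103 in these comparisons, a pseudocount of 0.1 gave 11 in the difference and no variance trend gave 7. At a threshold of 0.05, 212, 1645 and 153 features were called between untreated strains, between treated strains and in the difference, with 4 members between treated strains and 8 in the knockout response.

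With the library number as a block, 3 features were called between untreated strains and 7 in the difference, 1 member between treated strains (*MLS1*) and 0 in the difference. Same-numbered libraries of the strains correlated in their deviations by -0.17 to 0.13, so equal numbers were not taken as pairs between strains. No block by equal number could be fitted for the responses to rapamycin, whose groups share no number. A block of neighboring numbers within a strain was not tried, and no source used here says which libraries share a day. The responses were fitted unpaired, and whether such a pairing would change them was not tested. With 3 libraries a group, *SFC1* at 7 reads is where depth limits most.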
